A study of Mus musculus with 8 samples.

Results

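The genes described here are 34 mouse genes of sterol and fatty acid synthesis, chosen by name from the 23146 genes to which the counted transcripts could be assigned. They comprise 18 enzymes of cholesterol synthesis, 10 enzymes of fatty acid synthesis, elongation and desaturation, 4 regulators of the sterol regulatory element binding proteins (SREBPs), and 2 enzymes that close triglyceride synthesis. All 34 were found, each as its transcript of highest total count, and all 34 passed the filter on low counts. They were measured by RNA sequencing of epidermis from mouse embryos, with 2 libraries in each of 4 groups. The control groups carried floxed alleles of Nir (Noc2l) and were taken at embryonic stages E15.5 and E17.5 (E counts days of gestation). The knockout groups, at the same days, came from a cross of Nir floxed mice with Krt14-Cre mice, in which Cre recombinase is under control of the Krt14 promoter, active in basal keratinocytes. The series asks what Nir does in the epidermis during development. The labels do not say whether the control embryos carried Cre, how many floxed alleles an embryo had, or whether embryos were pooled.

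Cholesterol is built from acetyl-CoA. The early enzymes make mevalonate and join its isoprene units into farnesyl diphosphate, and squalene synthase and the enzymes after it make squalene, close it into lanosterol and trim that to cholesterol. Fatty acids start from the same acetyl-CoA, which Acly makes from citrate. Acaca and Fasn build the saturated chain, the Elovl enzymes lengthen it, and the Scd and Fads enzymes add double bonds. SREBPs are membrane-bound transcription factors that the escort protein Scap carries from the endoplasmic reticulum to the Golgi for cleavage, and Insig proteins hold Scap back when sterols are plentiful. Srebf2 is best known for driving the cholesterol genes and Srebf1 the fatty acid genes. In skin, cholesterol, ceramides and free fatty acids form the lipid lamellae of the barrier, which is completed late in gestation.

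Promoters are printed for 4 genes, because the cholesterol enzymes moved together in the counts. Most of those examined share short motifs there, which other listed genes hold too. RefSeq windows on GRCm38.p6, from 250 bases before to 50 bases after a gene's start, were at hand for 25 of the 34 genes, 31 windows in all. A set of 4 motifs was searched on both strands. They were the sterol regulatory element (TCACNCCAC, where N is any base), the E-box (CACGTG), the box named after its own letters, CCAAT, and the binding letters of Sp factors known as the GC box (GGGCGG). A match on the opposite strand is printed as its reverse complement. No match of one motif overlapped a match of another (0 overlaps). The 200 bases before the start are given 5′ to 3′ on the gene's strand, and capitals mark motif matches. Hmgcs1 (chr13:119690151-119690350, plus strand) held 1 sterol regulatory element, 2 CCAAT boxes and 2 GC boxes in these bases. Mvk (chr5:114444069-114444268, plus strand) held 5 CCAAT boxes and 1 GC box. Msmo1 (chr8:64733579-64733778, minus strand) held 3 CCAAT boxes and 2 GC boxes. Fads2 (chr19:10101504-10101703, minus strand), a fatty acid gene that rose in the E15.5 knockout, is shown beside them and held 1 GC box. It does not stand for all risen genes: Elovl5, which also rose at E15.5, had CCAAT boxes and an E-box in its window. Acat2, a cholesterol enzyme that fell, had no CCAAT box in its window.
Hmgcs1: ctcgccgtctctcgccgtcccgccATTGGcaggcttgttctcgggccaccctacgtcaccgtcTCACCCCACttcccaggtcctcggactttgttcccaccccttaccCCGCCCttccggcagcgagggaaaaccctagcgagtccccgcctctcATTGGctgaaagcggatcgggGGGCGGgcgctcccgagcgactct
Mvk: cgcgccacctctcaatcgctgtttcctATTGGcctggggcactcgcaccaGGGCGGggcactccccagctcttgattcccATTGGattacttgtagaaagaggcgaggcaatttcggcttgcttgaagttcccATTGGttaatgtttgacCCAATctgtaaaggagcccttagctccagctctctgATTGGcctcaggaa
Msmo1: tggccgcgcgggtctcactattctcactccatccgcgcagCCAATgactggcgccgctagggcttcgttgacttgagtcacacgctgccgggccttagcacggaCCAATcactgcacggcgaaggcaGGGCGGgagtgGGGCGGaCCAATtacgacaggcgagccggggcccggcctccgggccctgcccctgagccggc
Fads2: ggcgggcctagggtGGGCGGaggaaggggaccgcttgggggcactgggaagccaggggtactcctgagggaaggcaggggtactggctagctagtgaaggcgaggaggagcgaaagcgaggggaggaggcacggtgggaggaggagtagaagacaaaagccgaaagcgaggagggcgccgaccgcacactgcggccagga

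The CCAAT box stood in 14 of the 18 windows of cholesterol enzymes (14 of 15 genes with a window) and in 3 of the 6 windows of fatty acid enzymes, against 37.4% of all 32851 windows. The GC box stood in 15 of 18 cholesterol windows and 2 of 6 fatty acid windows, against 35.7% of all windows. The sterol regulatory element in this exact spelling stood in 1 of 18 cholesterol windows, that of Hmgcs1, and in 0 of 6 fatty acid windows, against 1.24% of all windows. The E-box stood in 3 of 18 cholesterol windows (Dhcr7, Hsd17b7 and Sc5d) and in 1 of 6 fatty acid windows (Elovl5), against 7.15% of all windows. Among the 7 windows of the 4 SREBP regulators, the GC box stood in 6 and the CCAAT box in 4. The E-box stood in 3 of these 7 and the sterol regulatory element in 0. Srebf1 and Insig1, called at neither stage, had both CCAAT and GC boxes, so these boxes were not confined to genes that fell. Of the fatty acid genes that rose at E15.5, Scd2, Elovl3 and Fads1 had no window. A match here is a run of letters and not a measured binding site.

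Gene counts summed to between 25226357 and 28895657 per library. Levels are CPM, a gene's count scaled to a common library total, after TMM scaling of the totals (a correction for library composition). Noc2l, the targeted gene, stood at 107 and 97.4 against 95.6 and 91.6 CPM (controls, then knockouts) at E15.5 and at 106 and 121 against 85.4 and 86.9 CPM at E17.5. Its log2 fold change was -0.12 ± 0.10 (standard error, SE) at E15.5 (edgeR, adjusted p = 0.33), and at E17.5 Noc2l fell by 0.39 ± 0.10 on the log2 scale (adjusted p = 0.0062). These counts cover the whole transcript, so they do not check the deletion, and the libraries are named after their labels. Marker transcripts of several cell types differed with genotype. Summed over 9 basal keratinocyte markers, the level was 7117 to 7580 CPM in E15.5 controls and 1973 to 2046 CPM in E15.5 knockouts, and 7680 to 7711 against 1148 to 1188 CPM at E17.5. All 9 fell at both stages, as did all 10 suprabasal and all 8 hair follicle markers. Of all genes tested, 22.3% fell and 23.2% rose at E15.5, and 26.7% changed in each direction at E17.5. The 9 dermal fibroblast markers, all 9 of which rose at both stages, summed to 31262 to 33249 against 77412 to 95900 CPM at E15.5 and 27107 to 31301 against 98227 to 103782 CPM at E17.5. The 5 erythroid markers all rose at both stages, from 3076 to 4202 up to 17810 to 30962 CPM at E15.5 and from 1159 to 1263 up to 13229 to 14918 CPM at E17.5. All 5 endothelial markers rose at both stages, and of 5 skeletal muscle markers 4 rose at E15.5 and 5 at E17.5. In controls the muscle markers summed to 7249 to 9036 CPM at E15.5 and to 7611 to 8545 CPM at E17.5. The part of these shifts in the changes of lipid genes was not tested. In bulk tissue, fewer cells of a type and less RNA per cell cannot be told apart. Markers of dermal fibroblasts and muscle were present in every control library too, so epidermis here is the label of the samples.

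In control epidermis the enzymes spanned a wide range of levels. Compared per kilobase of transcript, the highest level at E15.5 was that of Dgat2, at 165.9 CPM per kilobase, followed by Scd2 at 88.2, Acly at 77.7, Dhcr7 at 66.6 and Hmgcs1 at 52.1 CPM per kilobase. Elovl3 was the lowest of the 34, at 0.27 CPM per kilobase. At E17.5 the order of the leading genes in controls was Scd2 (137.4), Dgat2 (82.4), Hmgcs1 (81.4) and Acly (67.8 CPM per kilobase). Of the 34 genes, 33 had at least 100 counts in every library. Elovl3 had 8 to 197 counts, so its values carry the largest counting error.

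**Figure D1:**
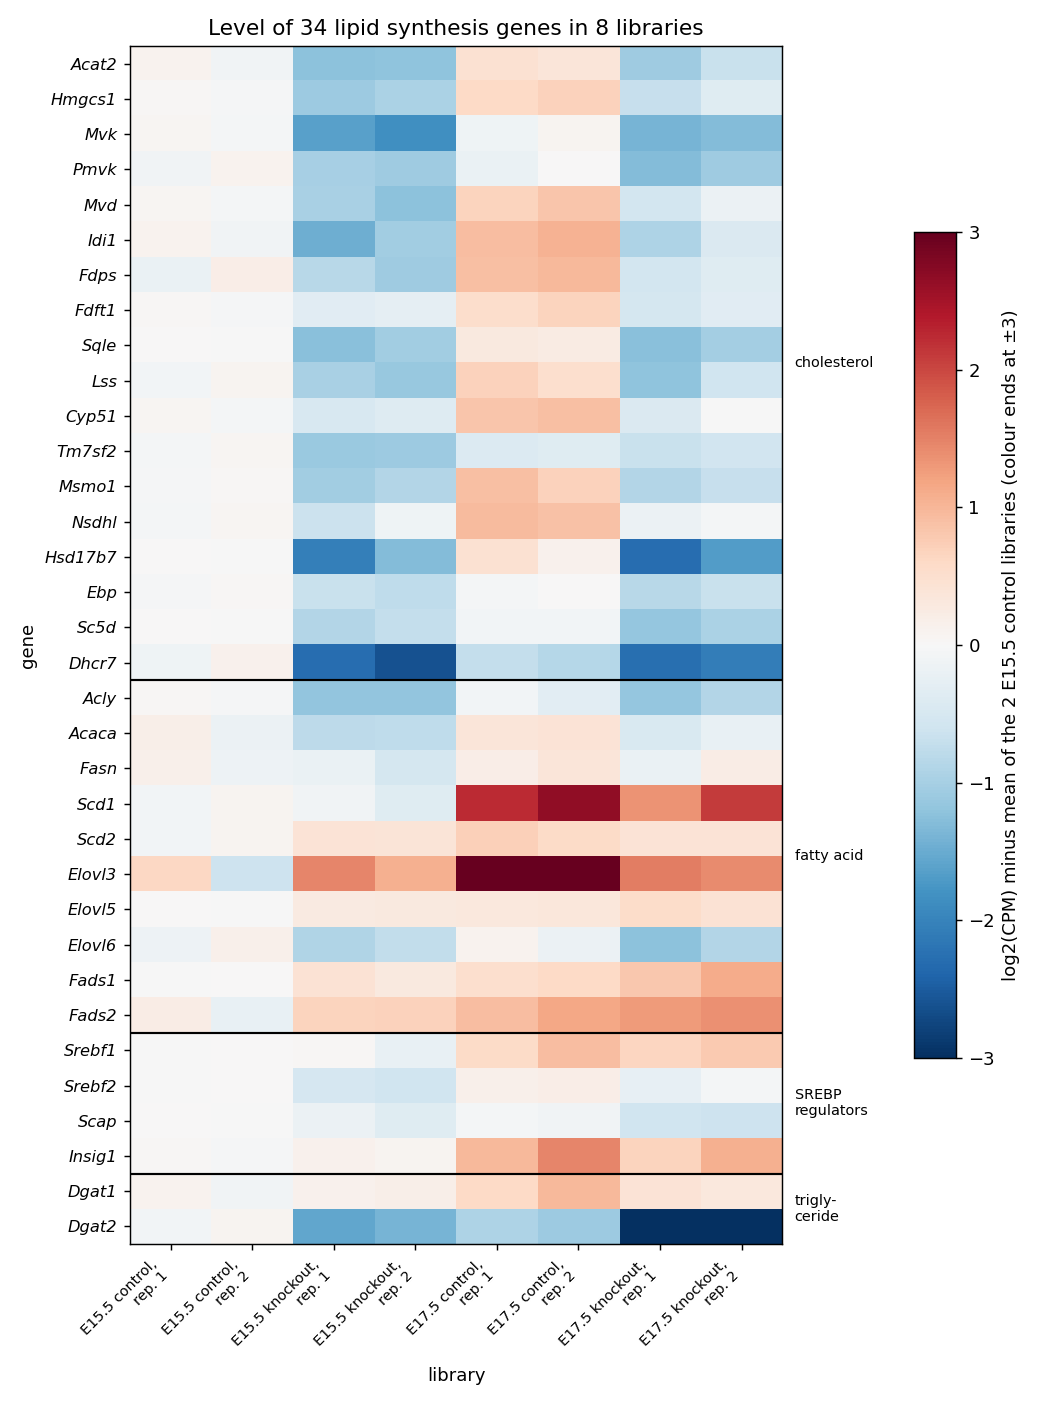
Heat map of 34 genes (rows, in pathway order and grouped by role) in the 8 libraries (columns). Colour gives log2(CPM) minus the mean of both E15.5 control libraries and ends at ±3, blue for lower and red for higher; the cholesterol rows are blue or pale in the 4 knockout libraries, whereas the fatty acid rows are mixed.

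Transcripts of the cholesterol enzymes, relative to TMM-scaled library totals, fell almost throughout in knockout epidermis. At E15.5, 17 of the 18 enzymes fell and 0 rose (edgeR quasi-likelihood test, Benjamini-Hochberg adjusted p below 0.05). Of all genes tested, 45.5% were called, 22.3% as fallen and 23.2% as risen. Their median log2 fold change was -1.04, against -0.00 over all genes, and it ran from -2.45 to -0.31. The exception was Nsdhl, a decarboxylating dehydrogenase of sterol trimming (-0.37 ± 0.16, adjusted p = 0.075). At E17.5, 17 of 18 fell and 0 rose, where 53.5% of all genes were called, 26.7% in each direction, with a median of -1.22 against -0.02 over all genes and a range from -2.24 to -0.24. There the exception was Tm7sf2, a sterol reductase. In all, 16 of the 18 enzymes fell at both stages. The share of all genes that fell at both stages was not counted. The summed level of the 18 enzymes was 1081 and 1099 CPM in E15.5 controls against 496 and 519 CPM in E15.5 knockouts, and 1355 and 1366 against 530 and 642 CPM at E17.5. The groups did not overlap at either stage. Without 1 library the E15.5 count ranged from 15 to 17. Cyp51, lanosterol demethylase (-0.44 ± 0.13, adjusted p = 0.019), was not called without E15.5 control replicate 1 or either E15.5 knockout replicate (adjusted p = 0.051 to 0.11), and Nsdhl was called without E15.5 knockout replicate 2 (-0.64, adjusted p = 0.0079).

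The 7 enzymes before squalene (Acat2, Hmgcs1, Mvk, Pmvk, Mvd, Idi1 and Fdps) all fell at both stages. Of all genes tested, 22.3% fell at E15.5 and 26.7% at E17.5. The log2 fold changes of the 7 spanned a narrow range, from -1.73 to -0.95 at E15.5 and from -1.64 to -1.09 at E17.5. Mvk, the kinase that phosphorylates mevalonate, was at 61.9 and 56.4 CPM in the E15.5 controls and 19.0 and 16.5 CPM in the E15.5 knockouts. At E17.5 its level was 54.3 and 62.3 CPM in controls and 22.6 and 23.8 CPM in knockouts. Every knockout library was thus below every control library, and Mvk fell by 1.73 ± 0.12 and 1.33 ± 0.12 on the log2 scale (edgeR, adjusted p = 8.8e-07 and 3.9e-06). Acat2, the cytosolic thiolase that joins 2 acetyl-CoA molecules, was at 40.9 and 35.7 against 16.2 and 16.5 CPM at E15.5 and at 52.8 and 49.1 against 18.1 and 24.0 CPM at E17.5. Its groups did not overlap either, and its log2 fold changes were -1.23 ± 0.14 and -1.27 ± 0.14 (adjusted p = 4.1e-05 and 2.0e-05). Acat2 has a near-identical mouse paralogue, Acat3, and how reads that match both were counted is not given in the sources used here. Hmgcs1, which makes HMG-CoA and whose promoter carries the sterol regulatory element printed above, was at 186 and 176 against 85.4 and 94.1 CPM at E15.5 and at 272 and 292 against 111 and 140 CPM at E17.5. It fell to 49.7% of the control level at E15.5 and to 44.5% at E17.5 (-1.01 ± 0.12 and -1.17 ± 0.12, adjusted p = 4.5e-05 and 1.0e-05). Fdps shares 1124 exonic bases on the same strand with the annotated gene Gm43738, and the 2 cannot be separated in its counts.

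Of the 11 enzymes from squalene on, 10 fell at each stage, where 22.3% of all genes fell at E15.5 and 26.7% at E17.5. Sqle, squalene epoxidase, a rate-limiting enzyme of the later steps, was at 106 and 104 CPM in E15.5 controls and 43.8 and 51.1 CPM in E15.5 knockouts. Its E17.5 levels were 129 and 124 CPM in controls and 44.0 and 52.1 CPM in knockouts. Controls stood apart from knockouts at both stages, with log2 fold changes of -1.14 ± 0.11 and -1.40 ± 0.11 (edgeR, adjusted p = 1.1e-05 and 1.6e-06). Msmo1, the sterol C4 methyl oxidase, was at 46.1 and 47.7 against 22.8 and 25.6 CPM at E15.5 and at 87.9 and 75.7 against 25.3 and 29.2 CPM at E17.5. It had the smallest adjusted p of the 18 at E17.5, and fell by 0.96 ± 0.12 and 1.58 ± 0.12 on the log2 scale (adjusted p = 7.4e-05 and 1.1e-06). The difference between these effects did not pass the test (-0.63 ± 0.17, adjusted p = 0.067). Hsd17b7, a ketosteroid reductase of the same demethylation steps that was singled out after its values were seen, had the largest fall of the 18 at E17.5, from 50.2 and 39.9 to 7.56 and 11.5 CPM (-2.24 ± 0.24, adjusted p = 1.4e-05). At E15.5 it fell from 37.0 and 36.5 to 8.88 and 14.9 CPM (-1.63 ± 0.24, adjusted p = 0.00019).

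Dhcr7, the reductase of the last step to cholesterol (chromosome 7, 143823145 to 143848410, GRCm38, plus strand), fell the most of the 18 at E15.5. Its level was 170 and 205 CPM in E15.5 controls and 38.2 and 30.3 CPM in E15.5 knockouts. The E17.5 controls were at 114 and 103 CPM and the E17.5 knockouts at 38.6 and 44.5 CPM. The 4 knockout libraries thus lay between 30.3 and 44.5 CPM, while controls were lower at E17.5 than at E15.5. The log2 fold change was -2.45 ± 0.14 at E15.5 (edgeR, adjusted p = 1.8e-07) and -1.38 ± 0.14 at E17.5 (adjusted p = 8.0e-06), and the effect at E17.5 was the smaller by 1.07 ± 0.19 (adjusted p = 0.0096).

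The effect on 2 other cholesterol enzymes also differed between the stages. Both share exonic bases with a neighbouring gene, as do several other members: on the opposite strand Scap shares 985, Hmgcs1 557, Lss 381, Idi1 323, Cyp51 166 and Srebf1 109 bases with another annotated gene. Fdft1, squalene synthase, the first enzyme committed to sterols, was at 66.1 and 63.5 against 51.2 and 53.3 CPM at E15.5 and at 92.9 and 104 against 45.1 and 50.8 CPM at E17.5. The knockout libraries were below the controls at both stages, by 0.31 ± 0.10 on the log2 scale at E15.5 (edgeR, adjusted p = 0.030) and by 1.03 ± 0.10 at E17.5 (adjusted p = 8.7e-06), and the difference of -0.72 ± 0.15 passed the test (adjusted p = 0.018). The fall at E15.5 was not called without either control or either knockout library of that stage (log2 fold changes of -0.34 to -0.28, adjusted p = 0.072 to 0.13). The difference between stages was not called without either E15.5 control, E15.5 knockout replicate 2, E17.5 control replicate 2 or E17.5 knockout replicate 1 (-0.76 to -0.64, adjusted p = 0.053 to 0.079). Fdft1 shares 774 exonic bases with Ctsb on the opposite strand, and Ctsb rose by 0.60 and 0.97 at the 2 stages. The strand setting of the counting is not given in the sources used here, so reads of the 2 genes cannot be told apart. Tm7sf2 was at 23.0 and 25.1 against 11.1 and 11.3 CPM at E15.5, with no overlap, and at 18.1 and 18.8 against 15.1 and 16.1 CPM at E17.5, where the gap was small. It fell at E15.5 (-1.10 ± 0.13, adjusted p = 3.2e-05), was not called at E17.5 (-0.24 ± 0.12, adjusted p = 0.12), and the effects differed by 0.85 ± 0.18 (adjusted p = 0.019). That difference was not called without E15.5 control replicate 2, either E15.5 knockout or E17.5 knockout replicate 2 (0.79 to 0.85, adjusted p = 0.056 to 0.080). Scaled by library totals alone, Tm7sf2 was called as fallen at E17.5 (-0.46, adjusted p = 0.012) and the difference was not called (0.64, adjusted p = 0.080). Tm7sf2 shares 532 exonic bases on the same strand with Vps51, whose own log2 fold changes were -0.61 and -0.12.

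**Figure D2:**
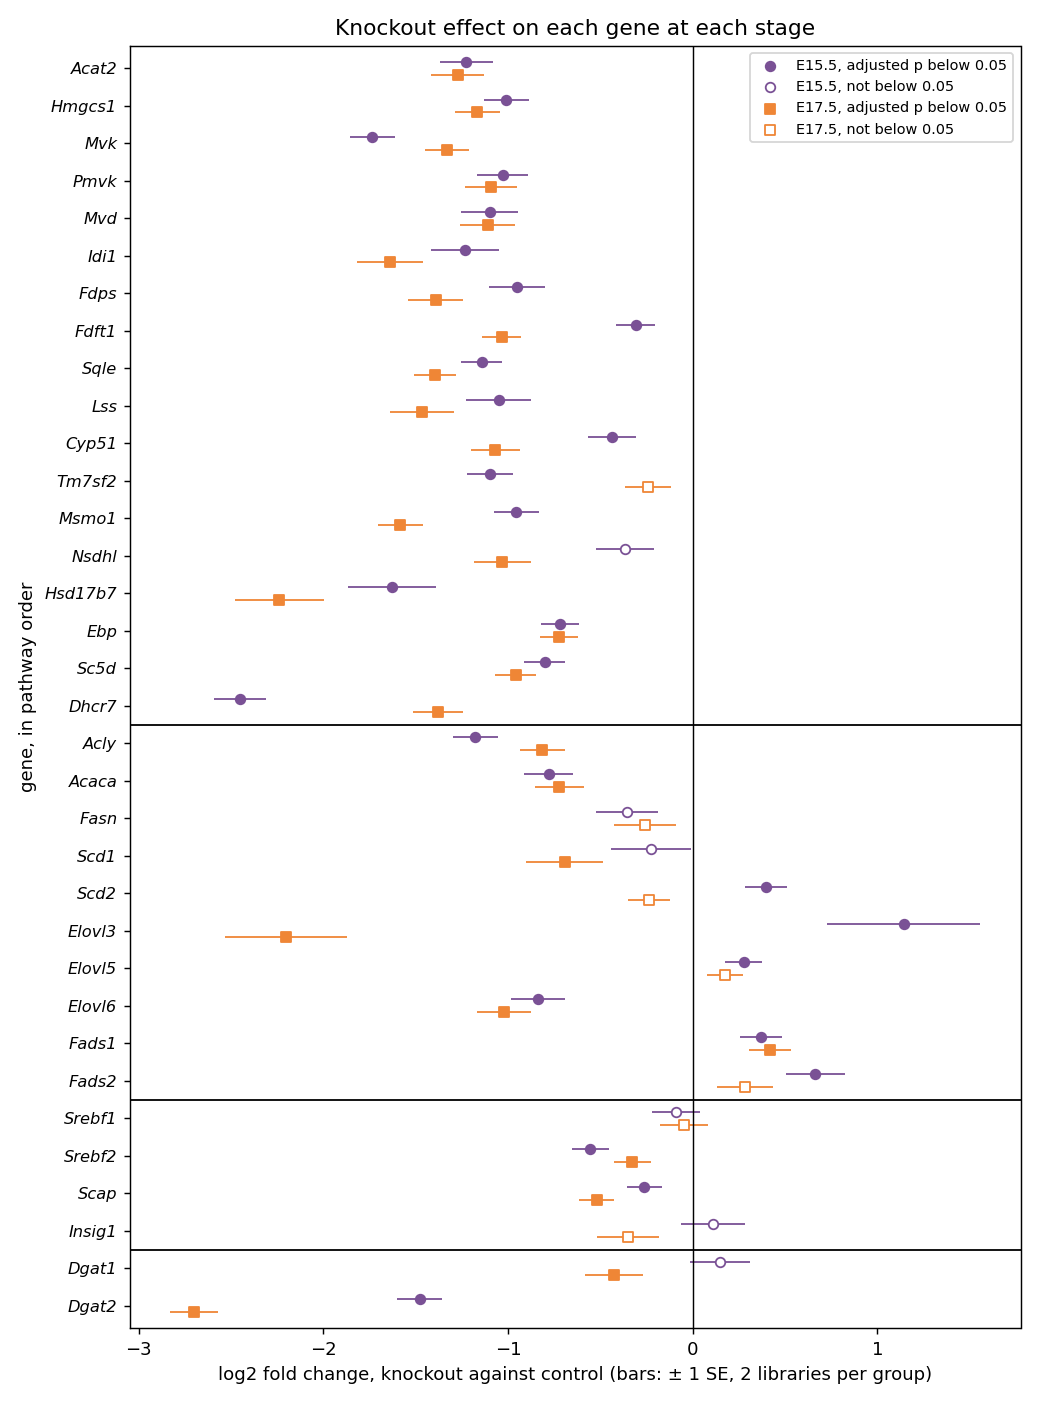
Log2 fold change of each of the 34 genes (vertical axis, in pathway order), knockout against control, at E15.5 (circles) and E17.5 (squares). Bars are ± 1 SE with 2 libraries per group, and filled symbols have an adjusted p below 0.05; all 18 cholesterol enzymes lie left of 0 at both stages, whereas fatty acid enzymes lie on both sides.

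The SREBP regulators showed small changes, with log2 fold changes between -0.55 and 0.11. Of the 4, 2 fell at both stages, Srebf2 and Scap, and 2 were called at neither, Srebf1 and Insig1. That is close to the share called among all genes, 45.5% at E15.5 and 53.5% at E17.5. Srebf2, the SREBP gene tied to cholesterol synthesis (chromosome 15, 82147181 to 82205379, plus strand), was at 198 and 198 CPM in E15.5 controls and 140 and 130 CPM in E15.5 knockouts. Its E17.5 levels were 221 and 229 against 168 and 191 CPM. The groups did not overlap, and Srebf2 fell by 0.55 ± 0.10 and 0.33 ± 0.10 on the log2 scale (edgeR, adjusted p = 0.00099 and 0.018). The E17.5 call did not hold without control replicate 2 (-0.31, adjusted p = 0.064) or knockout replicate 1 (-0.26, adjusted p = 0.14). Scap, the escort protein, was at 93.4 and 92.8 against 82.5 and 72.8 CPM at E15.5 and at 88.8 and 86.6 against 61.3 and 61.0 CPM at E17.5. Knockout libraries were lower at both stages (-0.26 ± 0.10 and -0.52 ± 0.10, adjusted p = 0.042 and 0.00079), but the E15.5 call did not hold when either E15.5 control replicate, E15.5 knockout replicate 2 or either E17.5 knockout replicate was left out (-0.27 to -0.18, adjusted p = 0.067 to 0.27).

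Srebf1, the SREBP gene tied to fatty acid synthesis (chromosome 11, 60199089 to 60222581, minus strand), was at 88.6 and 89.3 CPM in E15.5 controls and 91.2 and 75.9 CPM in E15.5 knockouts, with one knockout library above both controls. At E17.5 it was at 132 and 170 CPM in controls and 140 and 153 CPM in knockouts, inside the span of the controls. With log2 fold changes of -0.09 ± 0.13 and -0.05 ± 0.13, Srebf1 was not called at either stage (edgeR, adjusted p = 0.60 and 0.78). Insig1, the retention protein of the endoplasmic reticulum and itself an SREBP target, was at 23.5 and 22.1 against 25.0 and 24.2 CPM at E15.5 and at 44.6 and 62.5 against 36.2 and 48.1 CPM at E17.5. Its groups overlapped at E17.5, and its log2 fold changes were 0.11 ± 0.17 and -0.35 ± 0.17 (adjusted p = 0.64 and 0.10). At E17.5 Insig1 was called as fallen without control replicate 1 (-0.57, adjusted p = 0.015) or knockout replicate 2 (-0.59, adjusted p = 0.026), and with scaling by library totals alone (-0.56, adjusted p = 0.015).

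The fatty acid enzymes moved in both directions. At E15.5, 5 of the 10 rose (Scd2, Elovl3, Elovl5, Fads1 and Fads2), 3 fell (Acly, Acaca and Elovl6) and 2 were not called (Fasn and Scd1), with a median log2 fold change of 0.02, where 23.2% of all genes rose and 22.3% fell. At E17.5, 5 fell (Acly, Acaca, Scd1, Elovl3 and Elovl6), 1 rose (Fads1) and 4 were not called, with a median of -0.48. The 6 of 10 called at E17.5 are close to the 53.5% of all genes called there. The summed level of the 10 enzymes was 1410 and 1400 CPM in E15.5 controls against 1290 and 1225 CPM in knockouts, and 1897 and 1847 against 1364 and 1564 CPM at E17.5. The 3 falls at E15.5 held in every run that left out 1 library, but the rises did not. Without E15.5 control replicate 1, 2 enzymes were called as risen, without control replicate 2 or knockout replicate 1 of that stage 1, and without E15.5 knockout replicate 2 or either E17.5 knockout replicate 3.

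The same 3 enzymes, Acly, Acaca and Elovl6, fell at both stages. Acly, ATP citrate lyase, which supplies acetyl-CoA to both pathways (chromosome 11, 100476353 to 100528000, minus strand), was at 351 and 336 CPM in E15.5 controls and 152 and 152 CPM in E15.5 knockouts. Its E17.5 levels were 323 and 277 against 155 and 186 CPM. There was no overlap at either stage, and Acly fell by 1.18 ± 0.12 and 0.81 ± 0.12 on the log2 scale (edgeR, adjusted p = 1.5e-05 and 0.00016). Acaca, acetyl-CoA carboxylase, the committed step, was at 56.4 and 44.3 against 29.0 and 29.7 CPM at E15.5 and at 63.8 and 66.2 against 36.2 and 42.7 CPM at E17.5 (-0.78 ± 0.13 and -0.72 ± 0.13, adjusted p = 0.00058 and 0.00071). Elovl6, which elongates palmitate, was at 111 and 136 against 65.1 and 73.0 CPM at E15.5 and at 133 and 108 against 52.4 and 66.2 CPM at E17.5. Every knockout library was below every control, and Elovl6 fell by 0.84 ± 0.15 and 1.02 ± 0.15 on the log2 scale (adjusted p = 0.00072 and 0.00013). Fasn, the fatty acid synthase between Acaca and Elovl6, was called at neither stage. It was at 307 and 245 against 241 and 191 CPM at E15.5, where no knockout library reached a control library, and at 316 and 354 against 240 and 321 CPM at E17.5, where they overlapped. Its log2 fold changes were -0.35 ± 0.17 and -0.26 ± 0.17 (adjusted p = 0.11 and 0.21), and without E17.5 knockout replicate 2 the second was -0.50 (adjusted p = 0.049), and with scaling by library totals alone -0.47 (adjusted p = 0.026).

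Both desaturases of polyunsaturated fatty acids rose at E15.5. Fads1, the delta-5 desaturase, and Fads2, the delta-6 desaturase, are neighbours on chromosome 19 (10182888 to 10196877, plus strand, and 10062765 to 10101746, minus strand). Fads1 was at 52.0 and 52.3 CPM in E15.5 controls and 71.0 and 63.9 CPM in E15.5 knockouts, and at 73.6 and 79.3 against 92.0 and 113 CPM at E17.5. It was the only one of the 34 genes to rise at both stages (0.37 ± 0.12 and 0.42 ± 0.11, edgeR, adjusted p = 0.022 and 0.0089), and its groups did not overlap. Leaving out either E15.5 control or E15.5 knockout replicate 1 ended the E15.5 call (0.29 to 0.37, adjusted p = 0.083 to 0.15), and leaving out E17.5 control replicate 1 or E17.5 knockout replicate 2 ended the E17.5 call (0.37 and 0.25, adjusted p = 0.058 and 0.15), as did scaling by library totals alone (0.21, adjusted p = 0.15). Fads2 was at 11.6 and 8.57 against 15.8 and 16.1 CPM at E15.5 and at 18.8 and 22.1 against 24.1 and 25.7 CPM at E17.5. Knockouts stood above controls at both stages, but Fads2 passed the test at E15.5 (0.66 ± 0.16, adjusted p = 0.0056) and missed it at E17.5 (0.28 ± 0.15, adjusted p = 0.14). Without E15.5 control replicate 2 the E15.5 change was 0.46 (adjusted p = 0.060). Elovl5, which elongates polyunsaturated chains, was at 40.8 and 39.8 against 48.6 and 49.0 CPM at E15.5 and at 50.1 and 50.7 against 59.4 and 54.3 CPM at E17.5. These gaps were small, at 0.28 ± 0.10 and 0.17 ± 0.10 (adjusted p = 0.040 and 0.15), the second -0.038 with scaling by library totals alone. The E15.5 call of Elovl5 was lost without any 1 of the 4 E15.5 libraries or either E17.5 knockout replicate (0.25 to 0.30, adjusted p = 0.058 to 0.15).

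Scd1 and Scd2, the stearoyl-CoA desaturases that make oleate and palmitoleate, lie side by side on chromosome 19 (44394455 to 44407879, minus strand, and 44293674 to 44306864, plus strand) and differed in pattern. Scd2 was at 454 and 509 CPM in E15.5 controls and 641 and 628 CPM in E15.5 knockouts, whereas at E17.5 it was at 785 and 714 CPM in controls and 635 and 638 CPM in knockouts. Knockout libraries were thus above controls at E15.5 and below them at E17.5, with log2 fold changes of 0.40 ± 0.11 (edgeR, adjusted p = 0.014) and -0.24 ± 0.11 (adjusted p = 0.10). Scaled by library totals alone, the second was -0.45 and was called (adjusted p = 0.0058). The difference of -0.63 ± 0.16 lay at the threshold (adjusted p = 0.0496), and it was not called in any of the 8 runs that left out 1 library (adjusted p = 0.055 to 0.17). The rise at E15.5 was no longer called when control replicate 1 (0.32, adjusted p = 0.11) or knockout replicate 1 (0.38, adjusted p = 0.067) of that stage was left out. Scd1, singled out with Scd2 after its values were seen, was at 25.4 and 28.8 against 25.3 and 21.0 CPM at E15.5 and at 128 and 170 against 69.1 and 115 CPM at E17.5. The fall at E17.5 (-0.69 ± 0.21, adjusted p = 0.015) was lost without control replicate 2 (-0.48, adjusted p = 0.12) or knockout replicate 1 (-0.39, adjusted p = 0.10).

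Elovl3, an elongase of saturated and monounsaturated very long chains known from sebaceous glands and brown fat (chromosome 19, 46131897 to 46135694, plus strand), had the largest difference between the stages. Its level was 0.72 and 0.31 CPM in E15.5 controls (19 and 8 counts) and 1.30 and 0.99 CPM in E15.5 knockouts (35 and 28 counts). The E17.5 controls were at 5.69 and 6.32 CPM (157 and 197 counts) and the E17.5 knockouts at 1.35 and 1.26 CPM (37 and 35 counts). Only the E17.5 controls were high, and the other 6 libraries were at or below 1.35 CPM. The log2 fold change was 1.14 ± 0.41 at E15.5 (edgeR, adjusted p = 0.041) and -2.20 ± 0.33 at E17.5 (adjusted p = 0.00018), and the effects differed by -3.34 ± 0.53 (adjusted p = 0.0044). The rise at E15.5 rests on few counts and was called in only 1 of the 8 runs that left out a library, the one without E15.5 control replicate 1; in the other 7 the change was 0.66 to 1.33 (adjusted p = 0.051 to 0.25). Elovl3 shares 10 exonic bases with Pitx3, which rose by 1.06 and 1.33.

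Both triglyceride enzymes fell at E17.5, and Dgat2 had the largest fall of all 34 genes at that stage. Dgat2, a diacylglycerol acyltransferase (chromosome 7, 99153658 to 99182719, minus strand), was at 351 and 399 CPM in E15.5 controls and 127 and 142 CPM in E15.5 knockouts. At E17.5 it was at 197 and 175 CPM in controls and 26.3 and 31.1 CPM in knockouts. The level was thus lower in knockouts at each stage and lower at E17.5 than at E15.5 in each genotype. Dgat2 fell by 1.48 ± 0.12 at E15.5 and by 2.70 ± 0.13 at E17.5 on the log2 scale (edgeR, adjusted p = 3.0e-06 and 2.3e-08), and the effects differed by -1.22 ± 0.17 (adjusted p = 0.0023). Dgat1, which catalyses the same reaction, was at 11.02 and 9.53 against 11.2 and 11.6 CPM at E15.5 and at 15.4 and 20.0 against 13.6 and 12.8 CPM at E17.5. It was not called at E15.5 (0.15 ± 0.16, adjusted p = 0.49) and fell at E17.5 (-0.43 ± 0.16, adjusted p = 0.040). That call was lost without E17.5 control replicate 2 (-0.23, adjusted p = 0.32) or either E17.5 knockout replicate (-0.49 and -0.40, adjusted p = 0.079 and 0.14), and with the replicate number as a block (-0.42, adjusted p = 0.052).

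The cholesterol arm was set against the fatty acid arm within each library, since that difference does not depend on how libraries are scaled. The mean log2(CPM) of the 18 cholesterol enzymes minus that of the 10 fatty acid enzymes was -0.12 and 0.076 in E15.5 controls and -1.14 and -0.98 in E15.5 knockouts. At E17.5 it was -0.54 and -0.58 in controls and -1.32 and -1.25 in knockouts. Knockout libraries were below controls at each stage with no overlap, and the difference moved by -1.04 at E15.5 and by -0.72 at E17.5, against SDs within groups of 0.031 to 0.14 (n = 2 each). At E15.5 the cholesterol mean moved by -1.07 and the fatty acid mean by -0.04, whereas at E17.5 they moved by -1.24 and -0.51. These means include Elovl3, the gene with the fewest counts. Without Elovl3 the difference between the arms moved by -0.89 at E15.5 and by -0.91 at E17.5, so the smaller shift at E17.5 depended on that gene. With both triglyceride enzymes counted as fatty acid genes, the difference moved by -0.93 at E15.5 and by -0.55 at E17.5. With 2 libraries against 2 no exact test of a single value can give a p below 0.333, so none was run.

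**Figure D3:**
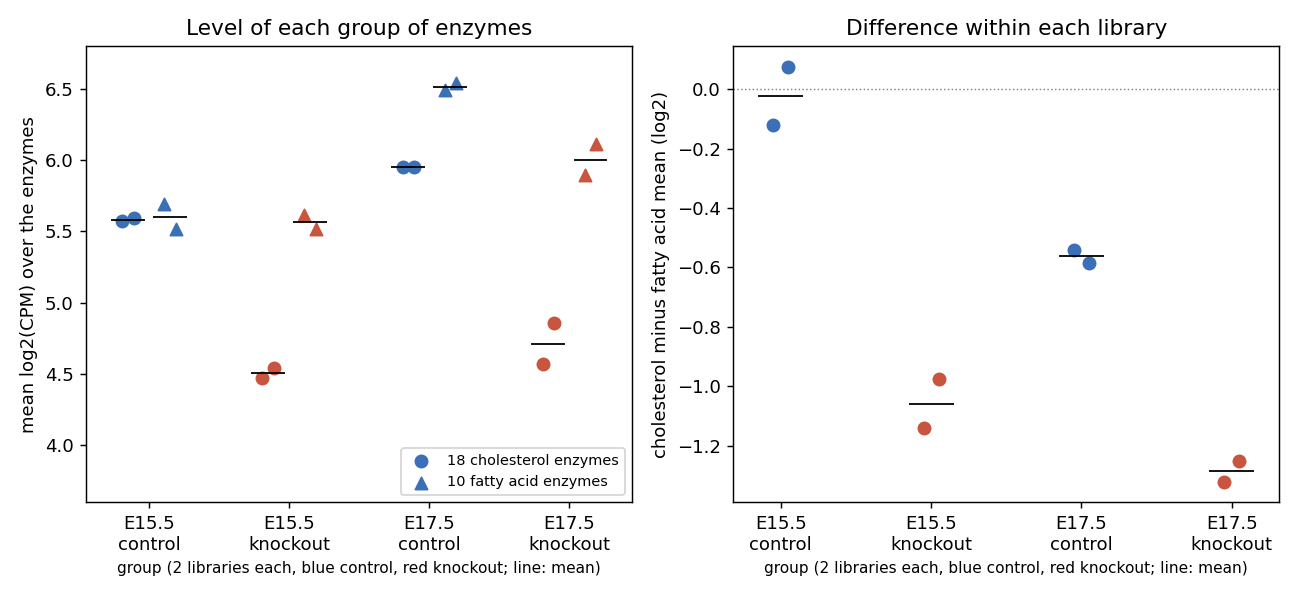
Left, mean log2(CPM) over the 18 cholesterol enzymes (circles) and over the 10 fatty acid enzymes (triangles) in each library, blue for control and red for knockout, with a line at the mean of each group. Right, the cholesterol mean minus the fatty acid mean within each library; knockout libraries lie between -1.32 and -0.98 and control libraries between -0.58 and 0.076.

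Between E15.5 and E17.5 many of these genes rose in control epidermis, in a comparison of the same libraries that entered the knockout comparisons. Of the 34, 17 rose and 2 fell, where 10.9% of all genes tested were called, 3.15% as risen and 7.7% as fallen. Among the cholesterol enzymes 9 rose (Hmgcs1, Mvd, Idi1, Fdps, Fdft1, Lss, Cyp51, Msmo1 and Nsdhl) and Dhcr7 fell, by 0.79 ± 0.13 on the log2 scale (edgeR, adjusted p = 0.0031). Of the fatty acid enzymes 5 rose (Scd1, Scd2, Elovl3, Fads1 and Fads2), led by Elovl3 (3.54 ± 0.37, adjusted p = 0.00028) and Scd1 (2.46 ± 0.22, adjusted p = 0.00011). Srebf1 and Insig1 rose too, by 0.76 ± 0.13 and 1.23 ± 0.17 (adjusted p = 0.0033 and 0.0012), as did Dgat1, while Dgat2 fell (-1.01 ± 0.12, adjusted p = 0.00057). In knockout epidermis 9 of the 34 rose and 2 fell, where 13.1% of all genes were called, 6.19% as risen and 6.91% as fallen. There, 3 cholesterol enzymes rose (Hmgcs1, Mvd and Tm7sf2) and 3 fatty acid enzymes (Scd1, Fads1 and Fads2), with Srebf1, Srebf2 and Insig1, while Scap and Dgat2 fell. Without E15.5 control replicate 2, 5 rather than 9 cholesterol enzymes rose in controls. The 3 risen in knockouts were 1 without E15.5 knockout replicate 1 and 0 without replicate 2 of either knockout group, and the 3 fatty acid enzymes were 1 without replicate 2 of either knockout group.

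Adipocyte markers moved with stage as well, and their part in these rises was not tested. Summed over 9 genes, their level was 394 to 440 CPM in E15.5 controls, 390 to 425 CPM in E15.5 knockouts, 830 and 1240 CPM in E17.5 controls and 813 to 817 CPM in E17.5 knockouts. Of the 9, 8 rose with stage in controls and 7 in knockouts, where 3.15% and 6.19% of all genes tested rose. Against controls, 2 fell and 0 rose in the E15.5 knockout, and 4 fell and 1 rose in the E17.5 knockout. Of all genes 45.5% were called at E15.5 and 53.5% at E17.5, so the E17.5 count is near that share and the E15.5 count below it. The 4 were Adipoq, Plin1, Cidec and Cebpa, named after their values were seen. Adipoq was at 55.1 and 123 against 21.8 and 15.2 CPM at E17.5, Plin1 at 32.7 and 58.1 against 9.24 and 6.94 CPM, and Cidec at 9.97 and 24.3 against 6.02 and 4.64 CPM. Cebpa was at 72.4 and 109 against 24.2 and 20.8 CPM at E17.5. It was also lower in knockouts at E15.5, at 100 and 87.0 against 21.4 and 17.6 CPM, and its control levels overlapped between the stages. The 1 that rose at E17.5 was Plin4, at 31.9 and 33.5 against 83.0 and 61.1 CPM. Groups overlapped at E17.5 for Fabp4 (266 and 440 against 281 and 358 CPM), Lpl (323 and 396 against 340 and 299 CPM) and Pparg (28.8 and 38.3 against 30.8 and 31.8 CPM). The list was thus mixed. The part of adipocyte markers in the E17.5 falls of Scd1, Elovl3 and Dgat2 was not tested either. Only Cfd had 0 counts in a library. The level summed over 7 sebocyte markers was 161 to 187 and 386 to 464 CPM in E15.5 and E17.5 controls, and 47.8 to 56.0 and 42.4 to 42.5 CPM in E15.5 and E17.5 knockouts. Most of that sum in controls was Krt79, at 143 and 109 CPM at E15.5 and 342 and 421 CPM at E17.5. In knockouts Krt79 was at 3.78 and 4.22 CPM at E15.5 and at 10.2 and 9.27 CPM at E17.5. Most of the knockout sum was Far2, at 38.0 and 46.2 CPM at E15.5 and at 26.4 and 26.2 CPM at E17.5. The sum thus mainly followed Krt79 and does not stand for the list as a whole. Awat1 and Dgat2l6 were at 0 in at least 1 library. Of the 6 sebocyte markers tested, 2 fell in the E15.5 knockout and 5 in the E17.5 knockout, where 22.3% and 26.7% of all genes fell. With stage, 2 rose in controls, where 3.15% of all genes did.

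The test of the difference between the knockout effects called 6 of the 34 genes, 2 with a difference above 0 and 4 below 0. Of all genes tested 4.35% were called, 1.88% above and 2.47% below 0. These were Dhcr7, Tm7sf2, Fdft1, Scd2, Elovl3 and Dgat2, whose values are given above. Their effects moved in different directions: the fall of Fdft1 and Dgat2 was larger at E17.5, that of Dhcr7 and Tm7sf2 was larger at E15.5, and Elovl3 turned from a rise to a fall. None of the 7 enzymes before squalene and none of the 4 regulators was called (0 of 7 and 0 of 4). With 4.35% of all genes called, lists this small are not set apart by a count of 0.

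**Figure D4:**
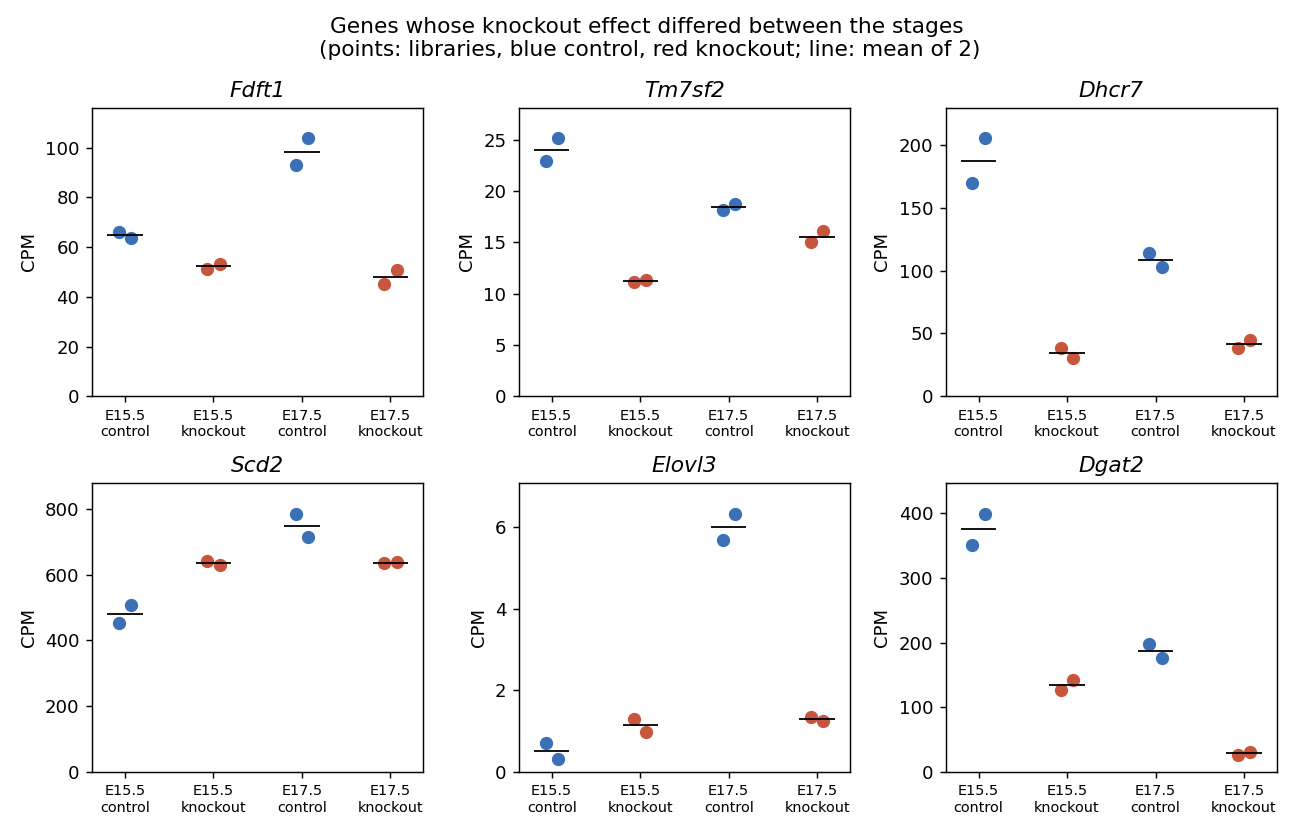
CPM of the 6 genes called in the difference between stages, in each library (points, blue for control and red for knockout), with a line at the mean of 2 libraries and each vertical axis starting at 0. Dgat2 is lower in knockouts at both stages, whereas the E17.5 controls alone are high for Elovl3.

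Genes that bring sterols to the pathway or carry them away were also counted. Of 12 genes of sterol uptake, transport and export, 7 rose and 1 fell at E15.5, and 9 rose and 1 fell at E17.5, with median log2 fold changes of 0.55 and 0.48. Of all genes tested, 23.2% rose and 22.3% fell at E15.5 and 26.7% each way at E17.5, with medians of -0.00 and -0.02. Abca1, a cholesterol exporter, was at 75.5 and 80.6 against 155 and 161 CPM at E15.5 and at 78.9 and 87.5 against 212 and 180 CPM at E17.5 (1.02 ± 0.11 and 1.24 ± 0.11, edgeR, adjusted p = 1.7e-05 and 2.6e-06). Abcg1, another exporter, rose by 0.87 at E15.5 and by 1.94 at E17.5, from 13.0 and 13.2 to 48.7 and 51.9 CPM (adjusted p = 0.0013 and 3.1e-06). Lipa, the lysosomal acid lipase that frees cholesterol from its esters, rose by 0.97 and 1.15 (adjusted p = 3.6e-05 and 7.1e-06). The 1 that fell at both stages was Stard4, an intracellular cholesterol carrier that SREBP2 is known to activate (-1.17 and -0.91, adjusted p = 2.8e-05 and 0.00013). Many of these genes are also expressed in fibroblasts and macrophages, whose markers rose with genotype: 4 myeloid markers summed to 116 CPM in both E15.5 controls against 250 to 252 CPM in E15.5 knockouts, and to 127 to 128 against 354 to 427 CPM at E17.5. The part of those cells in the rise was not tested.

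Counts in the other branches are read against the 45.5% of all genes called at E15.5 and the 53.5% called at E17.5. Of 8 genes of SREBP processing and degradation, 2 rose and 2 fell at E15.5 and 3 rose and 2 fell at E17.5, shares near those over all genes. Insig2, the second Insig gene, fell at both (-0.78 and -0.72, edgeR, adjusted p = 0.00011 and 0.00015). Of 10 genes of the isoprenoid side branches, which draw on the same farnesyl diphosphate, 1 fell at E15.5 and 2 at E17.5 and 0 rose, with medians of 0.04 and -0.08. Fnta, the shared subunit of the protein prenyltransferases, was the one that fell at both (-0.62 and -0.31, adjusted p = 0.00022 and 0.013). Among 9 genes of substrate and NADPH supply, 3 fell and 0 rose at E15.5 and 4 fell and 3 rose at E17.5. G6pdx, the first enzyme of the pentose phosphate pathway, went from 126 and 136 to 56.6 and 61.9 CPM at E15.5 and from 99.4 and 99.6 to 55.7 and 57.0 CPM at E17.5 (-1.15 and -0.82, adjusted p = 2.9e-06 and 2.4e-05). Me1, malic enzyme, another NADPH source, fell by 1.09 and 1.03 (adjusted p = 6.7e-05 and 7.7e-05).

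Of 9 genes that activate fatty acids and complete the elongation cycle, 7 fell and 1 rose at E15.5, and 6 fell and 0 rose at E17.5, with medians of -1.06 and -0.86. Over all genes 22.3% fell at E15.5 and 26.7% at E17.5. Acsl1, a long-chain acyl-CoA synthetase, was at 294 and 303 against 54.2 and 62.4 CPM at E15.5 and at 319 and 351 against 118 and 88.8 CPM at E17.5. Knockouts were well below controls at both stages (-2.35 ± 0.14 and -1.70 ± 0.14, edgeR, adjusted p = 2.5e-07 and 1.6e-06). Tecr, the reductase that ends each elongation cycle, fell by 1.55 and 1.28 (adjusted p = 8.8e-07 and 2.4e-06), and Hacd3, a dehydratase of the cycle, by 1.06 and 1.10 (adjusted p = 8.4e-06 and 4.6e-06). Of 8 genes of glycerolipid assembly, 2 rose and 2 fell at each stage, near the 45.5% and 53.5% called among all genes. Agpat3, a lysophospholipid acyltransferase, fell by 1.14 and 0.43 (adjusted p = 7.4e-06 and 0.0053), and Plin2, a coat protein of lipid droplets, rose by 0.82 and 0.74 (adjusted p = 0.00011 and 0.00017).

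The fall of the cholesterol enzymes was also set against that of the basal keratinocyte markers, whose log2 fold changes ran from -3.70 to -0.59 at E15.5 and from -5.44 to -0.52 at E17.5. The mean log2(CPM) of the 18 enzymes minus that of the 9 basal markers was -2.84 and -2.79 in E15.5 controls, -1.56 and -1.62 in E15.5 knockouts, -2.48 and -2.43 in E17.5 controls and -0.86 and -0.46 in E17.5 knockouts. Relative to the mean of these markers the enzymes were thus higher in knockouts, with no overlap at either stage, whereas per TMM-scaled library total they were lower. This does not hold for each marker: Itga6, named after its values were seen, fell by 0.59 and 0.52 on the log2 scale, less than the cholesterol medians. Which cells in these samples made the remaining transcripts was not measured.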

How the data were processed

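RNA sequencing gave 8 libraries, 2 in each of 4 groups. The authors deposited raw counts, whole numbers of reads for each RefSeq transcript. Per the submitters' processing notes, reads were aligned to mm10 with TopHat2 (version 2), counted with HOMER and tested with edgeR. The sources used here give neither the strand setting nor the handling of multiply mapping reads.

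The files held 30521 transcripts. Names came from the RefSeq table of GRCm38.p6 for 29908 and from GENCODE M21 for 182, after removal of the duplicate suffix on 781 of them. The 431 unnamed transcripts held 2.08% of counts (1.43% to 2.68% per library) and were left out. Each gene was represented by its transcript with the largest total. Another pair of tables joining the libraries of a stage, with 8 count columns, were not used.

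Counts were tested with edgeR 4.0.16 in R 4.3.3 (quasi-likelihood, TMM scaling, filterByExpr, 4 group means over all 8 libraries). Of 23146 genes, 16342 were tested, with Benjamini-Hochberg adjustment over all of them and a threshold of 0.05. The SE of a log2 fold change is its size over the root of F. CPM values use TMM-scaled totals, and lengths are those of the GENCODE transcripts matched to the counted RefSeq transcript. The procedure was checked on simulated data. The labels do not say whether replicates came from separate embryos, so the p-values reflect only the spread of these libraries, part of which may be technical. Replicates of a group differed by more than sampling noise (chi-square per gene 15.7 to 33.4). Replicate numbers recur across groups, but same-numbered libraries did not deviate together.

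The genes and the lists around them were chosen with earlier results of these data known, so no p is given over a list. The text names the 4 regulators, up to 5 cholesterol and 5 fatty acid enzymes with the smallest adjusted p in each knockout comparison, genes called against their group's majority or in the difference between stages, both triglyceride enzymes, and up to 3 called genes per related list; other genes were named after their values were seen. A gene that the rule picks is not reported here. Alternatives were DESeq2 1.42.0 (its size factors and its test), limma 3.58.1 (voom), library totals, no filter and a stricter one, sums over transcripts, a replicate block, fits on the compared groups alone, and leaving out each library.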

Additional observations from a re-analysis of the deposited data

Results flagged for a closer look

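For 8 genes the knockout effect at E17.5 differed from that at E15.5 by the test of the difference itself. These calls are from edgeR, with an adjusted p below 0.05 over all genes. Of the 34 genes, 2 were called above 0 and 4 below 0. Of the 56 genes of the related lists, 2 were called above 0 and 0 below 0. Over all genes tested 4.35% were called, so the related lists are not set apart by their count. On the log2 scale the effect at E17.5 minus that at E15.5 was -0.72 for Fdft1, 0.85 for Tm7sf2, 1.07 for Dhcr7, -0.63 for Scd2, -3.34 for Elovl3 and -1.22 for Dgat2. Among the genes of the related lists it was 1.07 for Abcg1, which rose more at E17.5, and 0.71 for Agpat3, which fell more at E15.5. Dhcr7, Elovl3 and Dgat2 kept the call in every run that left out 1 library.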

How the results depend on the processing

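Over the 17 alternatives, the call and direction of the 34 genes were the same in 536 of 578 values at E15.5 and 556 of 578 at E17.5, with 40 and 13 calls lost, 1 and 7 gained and 1 and 2 signs turned. The turned signs, none of them a call, were Elovl5 at E17.5 with library totals (-0.038) and Srebf1, which ranged from -0.24 to 0.034 at E15.5 and from -0.22 to 0.14 at E17.5 when 1 library was left out (above 0 without E15.5 knockout replicate 2 and E17.5 control replicate 2). Scaling by library totals alone moved the median of all genes at E17.5 to -0.23, with 3295 risen and 6284 fallen. Under it the E17.5 medians were -1.43 for cholesterol and -0.69 for fatty acid enzymes with 0 of the latter risen, Tm7sf2, Fasn, Scd2 and Insig1 were called as fallen, the difference between stages called 3 fallen and 1 risen cholesterol enzymes (medians -0.42 and -0.36 for the arms), and the control stage medians were 0.69 and 0.65. The difference between stages called 3 fallen cholesterol enzymes with DESeq2 and 2 with no filter, and 1 fallen fatty acid enzyme with DESeq2 size factors and with the replicate block. The control stage median of the cholesterol enzymes was 0.52 with no filter and 0.52 with only the groups compared, and 5 rose with stage in knockouts with DESeq2 and with no filter. Leaving out 1 library gave a range of -1.12 to -1.005 for the cholesterol median at E15.5, 1 to 4 risen fatty acid enzymes at E15.5, 0 to 1 at E17.5 and a fatty acid median of -0.68 to -0.32 at E17.5. For the difference between stages it gave 0 to 2 fallen and 1 to 2 risen cholesterol enzymes and 1 fallen fatty acid enzyme throughout. With stage, it gave 5 to 9 risen cholesterol enzymes and a median of 0.43 to 0.52 in controls, and 0 to 4 risen cholesterol and 1 to 4 risen fatty acid enzymes in knockouts. The difference between the arms at E17.5 was -0.55 with the triglyceride enzymes added and -0.91 without Elovl3, the latter chosen after seeing the data. At E15.5 the same settings gave -0.93 and -0.89. Same-numbered libraries did not deviate together (correlations -0.07 to 0.04); beside Dgat1 at E17.5 and Scd2 in the difference between stages (-0.63, adjusted p = 0.055), the replicate block changed no call among the 34 genes in these comparisons. Other calls lost outside these were, at E15.5, Fdft1 and Elovl5 with library totals, Elovl5 and Scap with DESeq2 and with no filter, Elovl3 with limma-voom, and Elovl3 and Scap with only the groups compared, and at E17.5 Dgat1 with DESeq2 and with only the groups compared. The cause of these changes was not tested. Counting error limits Elovl3 most; the other 33 genes had at least 100 counts in every library.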
